A study of Canis lupus familiaris with 12 samples.

Results

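TFF1 and SLPI are small secreted proteins that epithelia release to protect their surface, and in dog kidney cells held in acid medium the TFF1 signal was lower and the SLPI signal higher than in control medium. The members are the non-control probes of the array whose design name is a RefSeq transcript of dog TFF1 or SLPI. They make up 2 of 944 genes that could be named and 3 of 43603 probes: 1 for TFF1 (A_11_P0000019718, NM_001002992) and 2 for SLPI (A_11_P054756 and A_11_P00000500, both NM_001113171). The pair of genes was chosen by the measured difference between pH 7.0 and pH 7.4. That difference is therefore given as a description, and no p-value of a member probe is given. Other probes of the array, named for other kinds of transcript record, were not matched to either gene here.

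Madin-Darby canine kidney (MDCK) cells are an established epithelial line of the dog renal tubule. Confluent cells were moved to serum-free medium of pH 7.4 the day before, then held for 24 h either at pH 7.4, the control, or at pH 7.0, reached by lowering the bicarbonate of the medium. There were 3 biological replicates, extracted on different dates, each with 1 RNA per pH. Duplicate Agilent arrays read in a single colour were made from all 6 RNAs, giving 12 arrays, 6 per pH. All cells came from 1 line, with no genetic change and no other agent. The spread between replicates is thus that between cultures, extractions and slides of this line. The 4 arrays of a biological replicate shared 1 slide and 1 scan date, so slide and replicate cannot be told apart.

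TFF1 is a trefoil factor, a peptide folded by disulphide bonds into a compact, protease-resistant loop structure. It is best known from the surface mucous cells of the stomach, where it is secreted together with mucin and helps epithelial sheets to close over small wounds. SLPI, the secretory leukocyte protease inhibitor, carries a pair of whey acidic protein domains. It blocks neutrophil elastase and cathepsin G, kills some microbes and dampens NF-kappaB signalling, and injured kidney tubules are among the epithelia that make it.

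By the call of the scanner software, an array had 49.4% to 70.4% of its probes well above background, least on the slide of replicate 2. Of 7 kidney epithelial marker genes with a named probe, 6 were well above background on all 12 arrays, among them the junction genes CGN, TJP1 and CLDN3. Of 5 leukocyte markers 1 was (CD34, which other cells also express), of 6 fibroblast and endothelial markers 3 were (COL1A1, COL1A2 and VWF), and of 3 gastric and mucous markers 0 were. Of the other leukocyte markers, CD8A was well above background on 7 of 12 arrays, CD4 on 5, ELANE on 4 and the B-cell gene MS4A1 on 0. Of the gastric list, CBLIF, the intrinsic factor, was so on 0 arrays, while ATP4A, the acid pump of parietal cells, and TFF2 were on 8 of 12 each. The summed processed signal of the gastric list, not scaled between arrays, lay between 28.4 and 108 at pH 7.0 and between 32.6 and 102 at pH 7.4. That of the leukocyte list lay between 44.0 and 208 at pH 7.0 and between 78.4 and 309 at pH 7.4. For each list the 2 ranges overlapped, but they take no account of array brightness or of the pairing. A difference in cell content was not tested.

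TFF1 was detected throughout: all 6 arrays at each pH had its probe well above background, and none had it saturated. Its processed signal, in arbitrary fluorescence units, ran from 405 to 3778 at pH 7.0, with a median of 891. At pH 7.4 it ran from 557 to 10111, with a median of 3290. The 2 groups of arrays overlapped. The error that the scanner software assigns to these signals, which covers a spot's measurement and not the spread between cultures, was 10.0% to 10.1% of the signal.

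Levels below are log2 signals relative to each array's 75th percentile, so that 0 is the brightness of that percentile, and each RNA's level is the mean of its 2 arrays. At pH 7.0 TFF1 stood at 0.21, -0.11 and 1.96 in biological replicates 1, 2 and 3, a mean of 0.69 ± 1.11 (SD, n = 3 RNAs). In control medium the same replicates stood at 3.19, 0.43 and 2.42, a mean of 2.01 ± 1.42 (SD, n = 3 RNAs). The acid RNA was thus lower than its own control in each replicate, while the acid RNA of replicate 3 lay above the control RNA of replicate 2, so the groups overlapped. These are bulk RNAs, in which fewer cells making a transcript and less transcript per cell cannot be told apart.

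**Figure D1:**
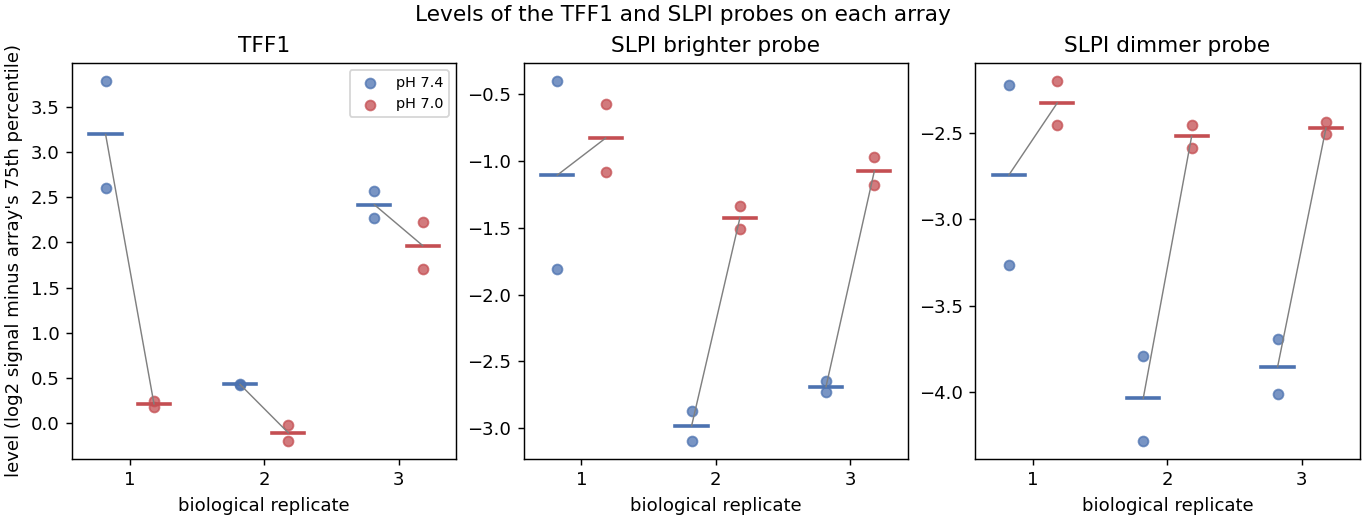
Levels of the TFF1 probe and of the brighter and dimmer SLPI probes (log2 signal minus the array's 75th percentile, vertical axes of different range) by biological replicate. Each point is 1 array, each bar the mean of the 2 arrays of an RNA, and grey lines join the 2 RNAs of a replicate. TFF1 bars are lower at pH 7.0 than at pH 7.4 in each replicate, most in replicate 1 (0.21 against 3.19), SLPI bars are higher in each, and the pH 7.4 arrays of replicate 1 lie far apart for all 3 probes.

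Within biological replicates the TFF1 change, pH 7.0 minus pH 7.4, was -2.98, -0.54 and -0.45 on the log2 scale. The first of these is a 7.88-fold lower signal in acid, the others are 1.45-fold and 1.37-fold lower. The estimate over the replicates was -1.32 ± 0.43 (limma standard error, n = 3 RNA pairs), or 2.50-fold lower. It rested largely on replicate 1: without that replicate it was -0.49 ± 0.28. Of the 27137 probes with a value in every RNA, 15.7% were lower at pH 7.0 in all 3 replicates, as TFF1 was. Of the 27138 tested probes 72 had a lower estimate than TFF1, but TFF1 was chosen by this difference.

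The brighter SLPI probe was likewise detected on all 6 arrays at each pH and saturated on none, with signals from 144 to 477 (median 312) at pH 7.0 and from 56.5 to 555 (median 100.1) at pH 7.4. SLPI levels from this probe at pH 7.0 were -0.83, -1.42 and -1.08 in biological replicates 1, 2 and 3, a mean of -1.11 ± 0.30 (SD, n = 3 RNAs). At pH 7.4 they were -1.11, -2.98 and -2.69, a mean of -2.26 ± 1.01 (SD, n = 3 RNAs). The acid RNAs sat close together, while the control RNA of replicate 1 was as bright as the acid ones and lay above the acid RNA of replicate 2, so the groups overlapped on this probe.

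SLPI changes on the brighter probe were 0.28, 1.56 and 1.61 within biological replicates 1 to 3, which are 1.21-fold, 2.94-fold and 3.06-fold higher signals in acid. The estimate was 1.15 ± 0.29 (limma standard error, n = 3 RNA pairs), or 2.22-fold higher, and 179 of the tested probes had a higher one. SLPI, too, was chosen by this difference. Under normexp, another background correction, the estimate was 0.34, with changes of 0.17, -0.32 and 1.17, so replicate 2 took the opposite sign. With the extreme local backgrounds on 2 control arrays of that replicate replaced, normexp gave 0.77, with changes of 0.17, 0.97 and 1.17. The SLPI change was nearest 0 in replicate 1, where that of TFF1 was farthest from it.

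The dimmer SLPI probe had signals from 68.4 to 155 (median 120) at pH 7.0 and from 21.2 to 158 (median 49.1) at pH 7.4, detected on all 6 arrays at each pH. Levels at pH 7.0 were -2.33, -2.52 and -2.47, a mean of -2.44 ± 0.10 (SD, n = 3 RNAs), and those at pH 7.4 were -2.74, -4.04 and -3.85, a mean of -3.54 ± 0.70. On this probe every acid RNA lay above every control RNA, which held for 4.48% of all tested probes in that direction and for 3.61% in the other. Its changes were 0.42, 1.52 and 1.38, and the estimate was 1.10 ± 0.27, or 2.15-fold higher. Under normexp it was -0.00032 on backgrounds as given (0.26, -0.97 and 0.71 within replicates) and 0.56 with extreme backgrounds replaced.

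Over the 12 arrays their levels had a Pearson r of 0.956, a description of 2 probes for 1 transcript on the same arrays, and their changes within a replicate differed by at most 0.23. A higher level at pH 7.0 in all 3 biological replicates, as on both SLPI probes, was seen in 18% of the probes with a value in every RNA. By limma with Benjamini-Hochberg adjustment, 0 of the 27138 tested probes were called at an adjusted p under 0.05 (0%), the 3 member probes included, and 3324, or 12.2%, had an unadjusted p under 0.05.

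**Figure D2:**
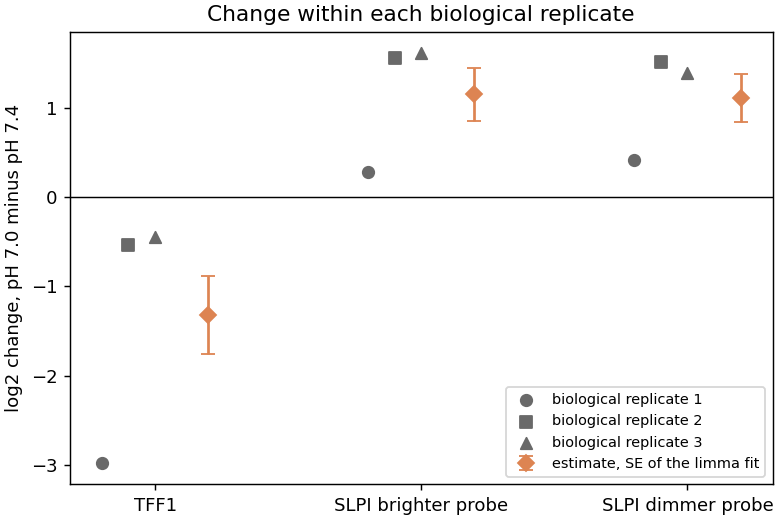
Log2 change, pH 7.0 minus pH 7.4, of each member probe in each biological replicate (grey symbols) with the estimate and standard error of the limma fit (orange). TFF1 lies below 0 and both SLPI probes above 0 in all 3 replicates, and replicate 1 has the largest TFF1 change (-2.98) and the smallest SLPI changes (0.28 and 0.42).

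Read against each other within a replicate, SLPI (brighter probe) gained on TFF1 by 3.26, 2.09 and 2.07 log2 units in acid in replicates 1 to 3, a mean of 2.47 ± 0.68 (SD, n = 3). A shift of a whole array cancels in this difference, since both probes lie on the same arrays. The background correction does not cancel: under normexp the mean was 1.55 on backgrounds as given, with -0.052 in replicate 2, and 2.04 with extreme backgrounds replaced. As reported, most of it came from TFF1 in replicate 1 and from SLPI in the other two.

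The control RNA of biological replicate 1 decided much of these values, and its 2 arrays stood apart from each other. TFF1 read 3.78 on pH 7.4 array 1 and 2.60 on array 2, a gap of 1.18, which was larger than that of 90.4% of the tested probes on the same arrays. For SLPI the gap was 1.41 on the brighter probe and 1.04 on the dimmer, again with array 1 higher. Over all tested probes these 2 arrays had a correlation of 0.974 and a median difference of 0.25, against correlations of 0.985 to 0.992 and median differences of -0.11 to 0.081 for the arrays of the other 5 RNAs.

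Set against array 1 alone, the acid RNA of replicate 1 had a TFF1 change of -3.57, and against array 2 alone -2.39, so TFF1 was lower by either array. SLPI took opposite signs: on the brighter probe -0.43 against array 1 and 0.98 against array 2, and on the dimmer probe -0.10 and 0.94. In replicates 2 and 3 every pairing of an acid with a control array had SLPI higher in acid, by 1.36 to 1.76 and by 1.47 to 1.76 on the brighter probe. The TFF1 pairings there were all lower, by as little as 0.039 and as much as 0.87 in replicate 3, where the change was thus near the spread of duplicate arrays. Without pH 7.4 array 1 the estimates over all replicates were -1.13 for TFF1 and 1.38 for SLPI, and without pH 7.4 array 2 they were -1.52 and 0.91.

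The order of the 6 RNAs differed between the genes. TFF1 was highest in the control RNAs of biological replicates 1 and 3, then in the acid RNA of replicate 3, and lowest in the control of replicate 2 and the acid RNAs of replicates 1 and 2. Neighbours in this order had arrays that did not overlap, but the gaps between the first 3 RNAs were only 0.035 and 0.039. A far wider step divided the first 3 RNAs from the others. SLPI on the brighter probe had a step of 1.14 between the control RNAs of replicates 2 and 3, which were lowest, and the other 4 RNAs, whose neighbouring arrays overlapped.

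TFF1 was among the most variable transcripts between RNAs of the same medium, which differed in slide as well as in culture. The SD of its level over the 3 control RNAs, 1.42, was larger than that of 99.0% of the tested probes, whose median SD was 0.39, and over the 3 acid RNAs, 1.11, it was larger than that of 93.6%. Its control RNAs spanned 6.78-fold. SLPI differed between the media in this respect: over the control RNAs the SD of the brighter probe was larger than that of 95.1% of the probes, and over the acid RNAs larger than that of 27.4%. These ranks describe 3 RNAs per medium. The median difference between duplicate arrays was 0.24 for TFF1, 0.22 and 0.29 for the brighter and dimmer SLPI probes, and 0.28 over all tested probes and RNAs. Besides the control of replicate 1, the brighter SLPI probe had a gap of 0.51 between the acid arrays of replicate 1, larger than that of 88.1% of the tested probes there, and the dimmer one a gap of 0.49 between the control arrays of replicate 2, larger than that of 79.2%.

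Among 563 other named genes whose brightest tested probe was saturated on no array, those most like TFF1 over the 6 RNAs were ATP1B1, the beta subunit of the sodium pump (Pearson r = 0.973), CTXN1, a small membrane protein (0.954), and ABCC1, an export pump for drugs and glutathione conjugates (0.951). ATP1B1 changed by -1.70, 0.085 and -0.44 in biological replicates 1 to 3, CTXN1 by -4.31, 0.14 and -0.16, and ABCC1 by -1.39, -0.032 and -0.20. All 3 shared with TFF1 a high level in the control RNAs of replicates 1 and 3 and the acid RNA of replicate 3, and in replicate 2, where TFF1 was at -0.54, their changes were nearer to 0. For the brighter SLPI probe the most alike were TNNI3, cardiac troponin I (r = 0.971), FN3KRP, a kinase that acts on sugar-modified proteins (0.935), and SLC46A2, a solute carrier (0.921). TNNI3 changed by 0.59, 1.60 and 1.15, SLC46A2 by 0.17, 1.52 and 0.71, and FN3KRP by 0.21, 0.25 and 0.37, much more evenly than SLPI. These correlations are descriptions over 6 RNAs that share 3 slides, and TFF1 and SLPI themselves had an r of 0.034.

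**Figure D3:**
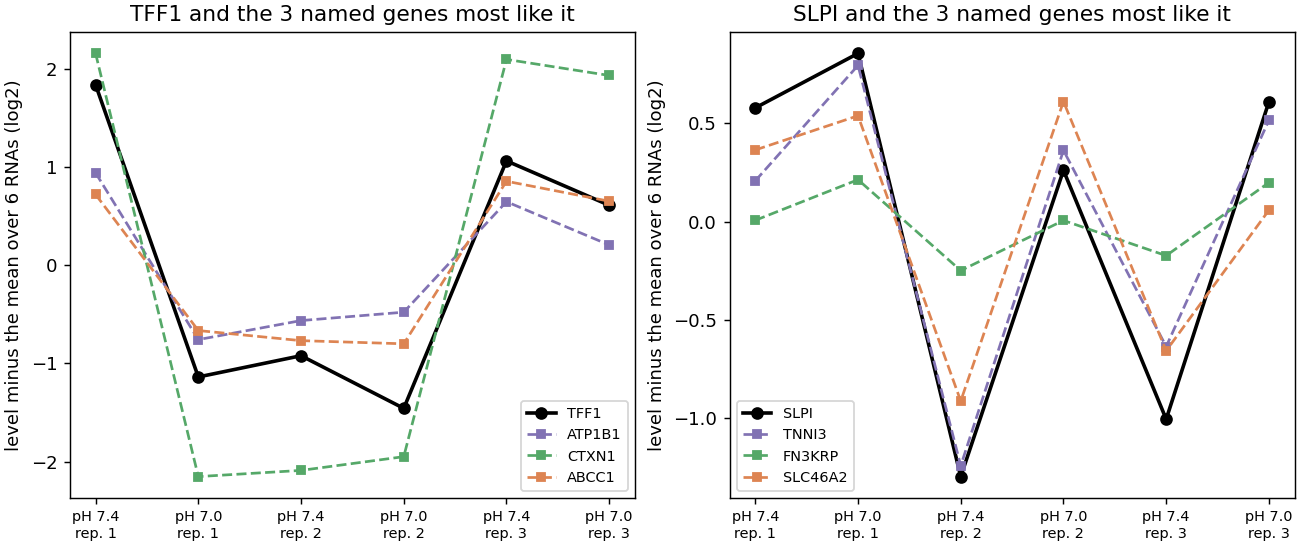
Levels of TFF1 (left) and of the brighter SLPI probe (right), black, with the 3 named genes most like each, as log2 levels minus each gene's mean over the 6 RNAs. RNAs are ordered by biological replicate, and lines only link the points of a gene. TFF1 and its neighbours are high in both RNAs of replicate 3 and in the control of replicate 1, and SLPI and its neighbours are low in the controls of replicates 2 and 3.

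The other trefoil genes gave little signal. TFF2 and then TFF3 lie next to TFF1 on the chromosome, by the RefSeq annotation of the dog assembly UU_Cfam_GSD_1.0. TFF3, the trefoil peptide of intestinal goblet cells, was well above background on 0 of 12 arrays, with signals of 1.51 to 6.16. TFF2, made by mucous neck and gland cells of the stomach, was well above background on 8 of 12 arrays by the brighter of its 2 probes, which had signals of 7.02 to 66.1, and on 0 by the other. The brighter TFF2 probe stood at -0.26 ± 0.27 (changes of 0.21, -0.99 and -0.0097), so it did not follow TFF1 in replicate 1. CLU, clusterin, a secreted chaperone and the only other tested gene of the mucus list, was saturated on all 12 arrays.

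SLPI was listed with its family and other protease inhibitors, of which 6 other genes of 7 with a named probe were tested. At pH 7.0, 4 were higher and 2 lower, with a median change of 0.14, against 0.077 over all 599 tested named genes. Under normexp background correction 3 were higher and 3 lower on backgrounds as given, and 5 and 1 with extreme backgrounds replaced. None of the 6 was called over all probes, and 0 had an unadjusted limma p under 0.05, against 0% and 12.2% of all tested probes. The metalloprotease inhibitors TIMP2 (0.50 ± 0.24) and TIMP1 (0.58 ± 0.35), SPINK5, an inhibitor of epidermal proteases (-0.36 ± 0.23), and SERPINH1, a collagen chaperone of the serpin fold (0.17 ± 0.22), had the lowest unadjusted p. TIMP2 took the opposite sign under normexp on backgrounds as given, but not with extreme backgrounds replaced. WFDC2, a secreted relative of SLPI with the same type of domain, named here after its values were seen, was saturated on all 12 arrays.

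The proteases and receptors that such inhibitors bear on were thinly covered, with 3 of 6 named genes tested, 2 higher and 1 lower. Under normexp 1 was higher and 2 lower on backgrounds as given, and 2 and 1 with extreme backgrounds replaced. ELANE, neutrophil elastase, the main target of SLPI, was above background on 2 of 6 arrays per pH and was not tested. KLK1, tissue kallikrein, stood at -0.65 ± 0.30 and, like TFF1, changed most in replicate 1 (-1.56, 0.019 and -0.42). F2RL1, a receptor that trypsin-like proteases activate, was at 0.030 ± 0.27. It turned negative under normexp on backgrounds as given, but not with extreme backgrounds replaced. MMP9, a gelatinase, was the listed gene with an unadjusted limma p under 0.05, but its brightest probe was saturated on 6 of 12 arrays, so no fold is given.

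Of the secreted antimicrobial list, 4 of 10 genes with a named probe were tested, 2 higher and 2 lower. Under normexp 1 was higher and 3 lower on backgrounds as given, and 2 and 2 with extreme backgrounds replaced. The median change of the 4 genes as reported was -0.0074, and 0 had an unadjusted limma p under 0.05, against 12.2% of all tested probes. They were CAMP, cathelicidin (-0.26 ± 0.25), S100A8, a subunit of calprotectin (0.17 ± 0.26), DUOX1, an oxidase that makes hydrogen peroxide (-0.081 ± 0.23), and HAMP, hepcidin (0.067 ± 0.22). S100A8 turned negative under normexp on backgrounds as given, but not with extreme backgrounds replaced. Changes of this list were small beside those of both members, but the members were chosen by this difference.

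Receptors, growth factors and transcription factors linked to TFF1 or SLPI had 5 of 7 named genes tested, 4 higher and 1 lower (3 higher and 2 lower after quantile normalization), with a median change of 0.23. ANXA2, 1 of the 4 higher genes and named here after its values were seen, was saturated on 5 of 12 arrays. It was the gene that turned negative after quantile normalization. ERBB2, a receptor of the EGF receptor family, stood at 0.53 ± 0.23 and had an unadjusted limma p under 0.05, and NFKB1, an NF-kappaB subunit, at 0.50 ± 0.23. For both genes every acid RNA lay above every control RNA, which makes 2 of the 20 tested genes of the 5 lists, against 46 of the 599 tested named genes. EGF, a growth factor of the distal tubule, stood at -0.48 ± 0.23 with changes of -0.24, -0.41 and -0.78, and ACKR3, a scavenging chemokine receptor, at 0.23 ± 0.22 with 1 saturated array. Over the 5 lists, 2 of 20 tested genes had an unadjusted limma p under 0.05, or about the share of all tested probes.

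**Figure D4:**
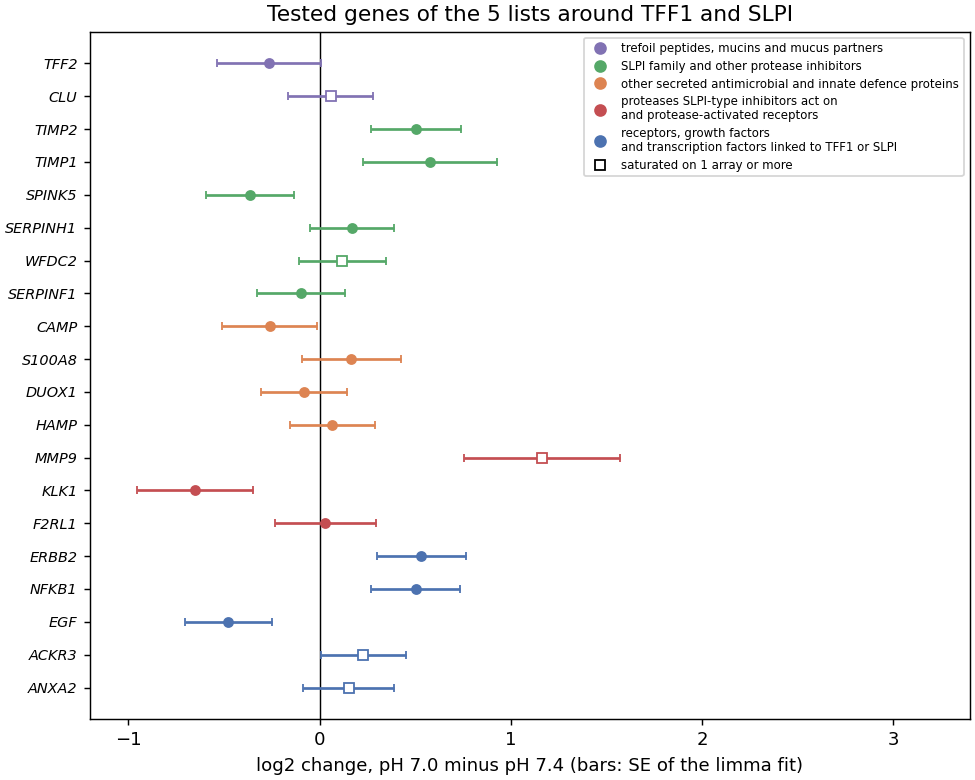
Log2 change, pH 7.0 minus pH 7.4, with limma standard errors, of the 20 tested genes of the lists around TFF1 and SLPI, by the brightest probe and coloured by list. Open squares are probes saturated on at least 1 array. Apart from MMP9, every estimate lies between -0.65 and 0.58, inside the estimates of TFF1 (-1.32) and SLPI (1.15), which were chosen by this difference.

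TFF1 lay between -1.33 and -1.21 under the 13 settings that kept all arrays. SLPI on the brighter probe lay between 1.14 and 1.15 under all of these but the mean of its 2 probes (1.13) and normexp, with standard errors of 0.41 on local backgrounds as given and 0.22 with extreme ones replaced. On backgrounds as given normexp moved the median change of all tested probes to -0.19, against 0.011 as reported.

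**Figure D5:**
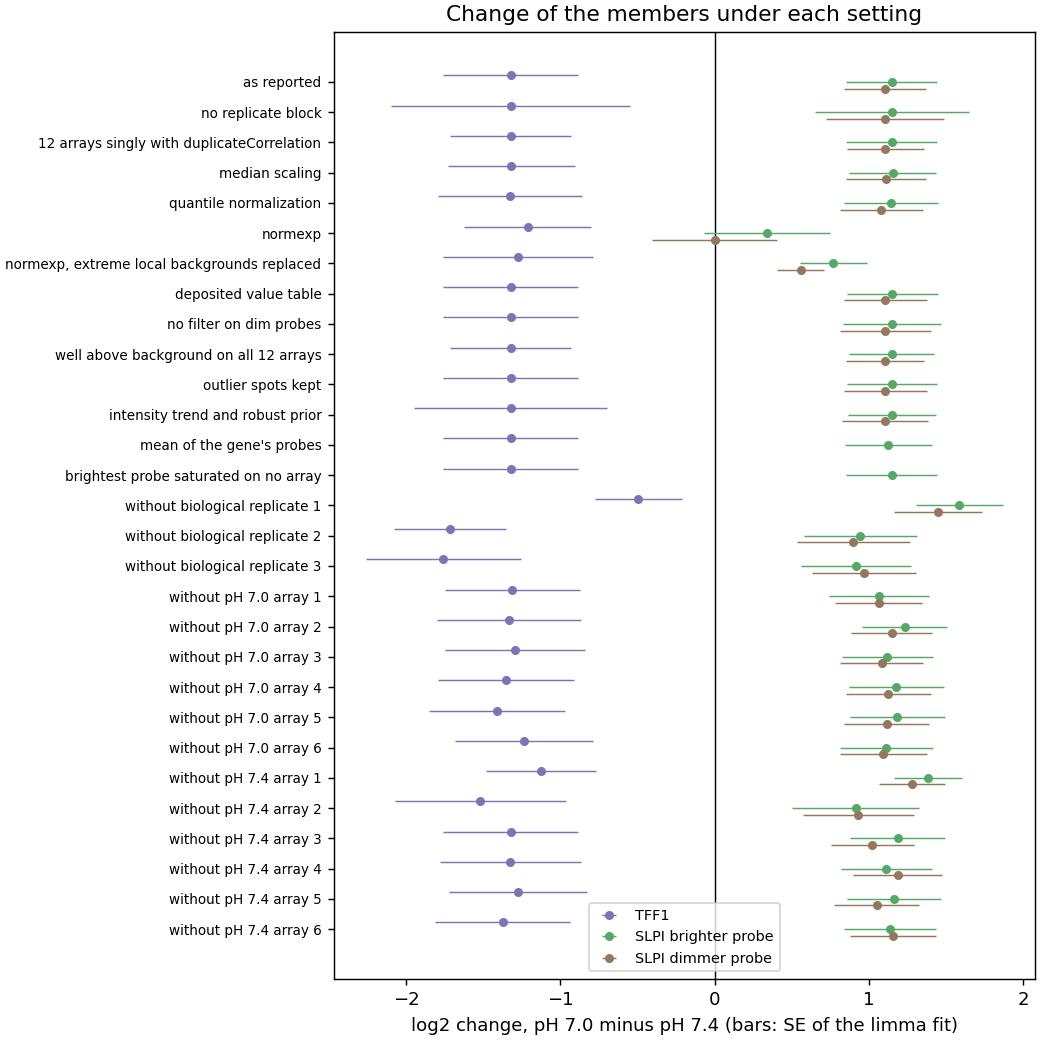
Log2 change, pH 7.0 minus pH 7.4, of TFF1 and of both SLPI probes under each processing setting and with each biological replicate or array left out, with limma standard errors. TFF1 lies between -1.52 and -1.13 except without biological replicate 1 (-0.49), 2 (-1.72) or 3 (-1.76), and SLPI is smallest under normexp on backgrounds as given (0.34 and -0.00032).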

How the data were processed

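The 6 RNAs of MDCK cells were read on 12 canine Agilent arrays in the Cy3 channel. Scans were quantified with Feature Extraction 10.7.3.1, per the submitters' processing notes. The authors' scanner files hold, per the file headers, a Cy3 intensity for each spot as a background-subtracted processed signal, its error, a median signal, a local background, and 0 or 1 flags. A table of log2 values deposited by the authors has column medians of -0.226 to 0.225. Its scale and centring are not stated, and by comparison it matched the values computed here minus each probe's median, with slopes of 1.00.

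Control spots were dropped, 128 outlier spots set to missing, saturated spots kept and spots of a probe averaged as log2 signals. From these the 75th percentile of the array was taken off, and the 2 arrays of an RNA were averaged. Probes well above background on at least 6 of 12 arrays were tested with limma 3.58.1 in R 4.3.3 (lmFit, eBayes), two-sided, with the biological replicate as a block and Benjamini-Hochberg adjustment over 27138 probes. The p-values refer to the spread between these extractions. The pairing comes from the submitters' design and titles, and deviations from the group means correlated at 0.394, 0.637 and 0.807 within replicates 1 to 3. The number of biological replicates, 3, limits the precision. Symbols were given to 1484 probes through RefSeq accessions without version.

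The members and lists were chosen with earlier results of these data known. A gene was represented by its brightest probe, and the naming rule took the 4 tested genes of lowest unadjusted p per list and the 3 most alike genes per member. The fit was tested on simulated data. Alternatives covered the block, duplicate arrays, scaling, normexp (offset 50), the value table, filters, the prior, the gene's probe, and each replicate and array left out. Slide equals replicate and was not fitted separately. Figures used python 3.11.15 and matplotlib 3.10.9.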

Additional observations from a re-analysis of the deposited data

How the results depend on the processing

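With no replicate block, the estimates were the same (-1.32 ± 0.78 for TFF1 and 1.15 ± 0.50 for SLPI) and 0 probes were called, so the pairing changed no call. It did change the precision: with the block these standard errors were 0.43 and 0.29. The smallest limma adjusted p of any probe with the block, 0.0502, lay just above the threshold. Under the other alternatives that kept all arrays, the estimates of TFF1 and the brighter SLPI probe kept their direction. The dimmer SLPI probe was at -0.000322 under normexp on backgrounds as given. Replacing extreme local backgrounds was chosen after seeing the data, and 2 arrays held such spots, 8 and 3. Leaving out a replicate or an array gave TFF1 between -1.76 and -0.49 and SLPI between 0.91 and 1.58. The count of called probes, 0 as reported, was 690 with the arrays entered singly, 24 with median scaling, 14 with normexp, 134 with probes well above background on all arrays, 196 with an intensity trend and robust prior, and 0 to 647 with a replicate or array left out (278 without biological replicate 1, 647 without 2, 15 without pH 7.0 array 6 and 4 without pH 7.4 array 1). For these counts the cause was not tested. TFF1 has 1 probe, and no member probe was saturated, so the alternatives on the gene's probe left TFF1 as it was. Signal over background limits the dimmer SLPI probe, which stood 2.06 times above the lowest signal called well above background on its weakest array.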

Other observations

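Several secreted defence genes of epithelia were not well above background in these cells at either pH. DEFB1, DEFB4A and CBD103, which encode defensins, REG3A, a lectin that binds bacteria, and UMOD, the urinary glycoprotein uromodulin of the thick ascending limb, each had 0 of 12 arrays above background by their named probe. SERPINA1, the serum inhibitor of neutrophil elastase, had 2 of 12 at most. Others of the same lists were well above background on all 12 arrays, as TFF1 and SLPI were: S100A8, DUOX1, HAMP, WFDC2 and SPINK5.

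The RNA in which TFF1 was highest, the control of biological replicate 1, was also the one whose duplicate arrays were least alike. Which of these 2 arrays better represents that RNA was not tested.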
